A study of Mus musculus with 6 samples.

Results

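The gene set described here holds 32 genes of motile cilia and of the ependyma, the ciliated epithelium that lines the brain ventricles. Members were taken by symbol from the count tables, and 30 of the 32 were found among the 24062 gene symbols listed. Dnah3 and Dnah12 were not analysed here. RNA came from the ventral dentate gyrus, a part of the hippocampus, of male mice of the strain given as C57black 6. Of 6 libraries, 3 were from controls that were not stressed and 3 from mice given chronic restraint stress. No genetic change is named for either group, and the sources used here give neither the age of the mice nor the duration of stress. The replicates are called biological, but whether a library holds 1 animal or several is not stated, so p-values measure only the spread between these samples.

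A motile cilium beats because dynein motors, attached in outer and inner rows, slide the microtubule doublets of its core against each other. Radial spokes and a central pair of microtubules regulate this sliding. Cells that carry many such cilia switch on the genes for these parts together, under the forkhead factor Foxj1 and factors of the RFX family. In the brain such cells are the ependymal cells of the ventricle wall, where beating moves cerebrospinal fluid, and the choroid plexus epithelium, which secretes that fluid and is also ciliated. The dentate gyrus itself is mainly a layer of granule neurons, whose single primary cilium lacks dynein arms and does not beat.

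Library totals ran from 8305753 to 10107953 gene counts. Levels are given as CPM, a gene's count scaled to the same total in each library. Where a gene has no count in a library, up to 3 counts remain possible, or 0.297 to 0.361 CPM, a limit that covers counting error only. Stress replicate 1 stood apart from the other 5 libraries: its chi-square per degree of freedom against them over genes was 16.3 to 19.5, whereas every other pair of libraries lay between 2.97 and 8.46. Its 9 granule neuron markers, which include Prox1 and C1ql2, summed to 488 CPM against 745 to 1019 CPM in the other 5 libraries, so the markers of the labelled tissue were present in every library and their sum was lowest in that one. Of the 9, Pdzd2 differed, at 91.2 CPM there against 66.6 to 93.2 CPM. Results on stress against control are therefore given with and without stress replicate 1. In such tissue samples, fewer cells of a type and less RNA per cell cannot be told apart.

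The 250 bases before the RefSeq start were examined for 26 of the 30 members in the files, on build GRCm38.p6. The RFX motif searched on both strands was GTTGCC, whose reverse complement is GGCAAC. It is only a part of an RFX site, and full sites were not searched. This motif was present before 9 of the 26 genes, or 34.6%, and before 11.8% of all 27025 genes with such a window. The forkhead motif TGTTTAC, whose reverse complement is GTAAACA, was present before 1 of the 26, Ak7, or 3.85%, and before 3.54% of all genes. None of the 4 windows printed holds the forkhead motif. The 4 sequences below are those with the RFX motif whose genes had the highest ratio of stress replicate 1 to the other libraries. They are shown so that the letters can be read beside the levels given later. Other members of high ratio had no RFX motif, among them Ak7, Dnah11, Dnah6 and Spag17, at 15.8 to 37.9, and Tmem212. Tekt2, with a ratio of 1.16, and Spag6, at 1.41, had it. Whether motif and ratio go together was not tested. Capitals mark the RFX motif. The Ccdc153 window lies at chr9:44240427-44240675 on the plus strand, with the motif starting 152 bases before the start. That of Dynlrb2 lies at chr8:116504765-116504973 on the plus strand, with the motif starting 51 bases before the RefSeq start, and it is trimmed at the earlier GENCODE start. For Spag16 the window is chr1:69826720-69826969 on the plus strand, with motifs at 111 and 103 bases, and for Dnah10 it is chr5:124724835-124725084 on the plus strand, with a motif at 20 bases.
Ccdc153: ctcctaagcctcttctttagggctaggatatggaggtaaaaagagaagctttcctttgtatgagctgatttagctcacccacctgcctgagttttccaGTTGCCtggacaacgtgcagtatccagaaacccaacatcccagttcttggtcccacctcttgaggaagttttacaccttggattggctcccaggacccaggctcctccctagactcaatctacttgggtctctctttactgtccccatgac
Dynlrb2: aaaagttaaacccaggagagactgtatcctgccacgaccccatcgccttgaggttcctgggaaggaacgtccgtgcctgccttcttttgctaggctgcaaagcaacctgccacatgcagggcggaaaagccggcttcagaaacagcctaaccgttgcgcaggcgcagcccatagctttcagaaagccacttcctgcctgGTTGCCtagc
Spag16: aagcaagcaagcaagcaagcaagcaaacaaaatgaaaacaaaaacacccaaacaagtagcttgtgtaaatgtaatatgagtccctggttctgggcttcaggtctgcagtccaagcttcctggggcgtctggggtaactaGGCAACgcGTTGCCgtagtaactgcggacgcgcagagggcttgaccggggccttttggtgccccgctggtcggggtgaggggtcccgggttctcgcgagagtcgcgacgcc
Dnah10: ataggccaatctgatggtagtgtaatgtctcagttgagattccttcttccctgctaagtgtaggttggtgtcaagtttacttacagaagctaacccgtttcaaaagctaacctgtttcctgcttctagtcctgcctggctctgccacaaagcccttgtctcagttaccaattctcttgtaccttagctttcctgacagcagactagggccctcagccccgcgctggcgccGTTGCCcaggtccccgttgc
These matches are a description of letters in a window and not of bound sites.

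Levels of the members differed widely in the control libraries. Per kb of merged exon, where genes of different length can be set side by side, 5 of the 29 members with a unique length reached a control mean of 1 CPM per kb. The level depends on the length used, and per kb of the longest transcript 6 members reached it, Rarres2 being the added one at 1.05, and Ccdc39 was at 9.93 and Vwa3a at 3.59. On merged exons the 5 were Pltp at 11.1 ± 1.41 CPM per kb (SD, n = 3), Ccdc39 at 4.81 ± 0.199, Dnah9 at 3.53 ± 0.457, Vwa3a at 2.28 ± 0.240 and Dnah5 at 1.48 ± 0.155. The other 24 lay below that level, among them the marker genes Foxj1 at 0.892 ± 0.275 CPM per kb and Rsph1 at 0.780 ± 0.365 CPM per kb. Rarres2 at 0.991 ± 0.230, Foxj1, Dnah1 at 0.837 ± 0.0739 and Rsph1 follow each other in the order of control levels, and their neighbouring means lie within 1 SD of each other. At the other end were Spag17 at 0.022 ± 0.0197 CPM per kb, Ak7 at 0.0333 ± 0.0391 and Dnah10 at 0.0387 ± 0.0123. Both marker genes were thus detected at low levels in control tissue, while the ependymal genes Ccdc153 and Tmem212 had 0 to 2 counts per control library.

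In 1 library the set looked different. In stress replicate 1, 19 of the 30 members were at least 2-fold above each of the other 5 libraries, against 1.21% of the 14058 genes tested and 3.00% of the 16379 genes with more than 3 counts in some library. No member was 2-fold above the rest in any of the other 5 libraries. Summed over the set, the level was 434 CPM in stress replicate 1, against 202, 224 and 207 CPM in the controls and 219 and 229 CPM in stress replicates 2 and 3. The library was singled out from earlier results and has no replicate of its own, so these values are given as a description with no test. Across the 30 members, 25 had their highest level there, compared with 22.7% of genes with more than 3 counts in some library. Of the 19 members tested, 15 did so, or 78.9%, compared with 21.7% of tested genes. The members nearest the 2-fold line were Rarres2, at 2.46 times its highest other library, and Dnaic1, at 1.84 times.

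**Figure D1:**
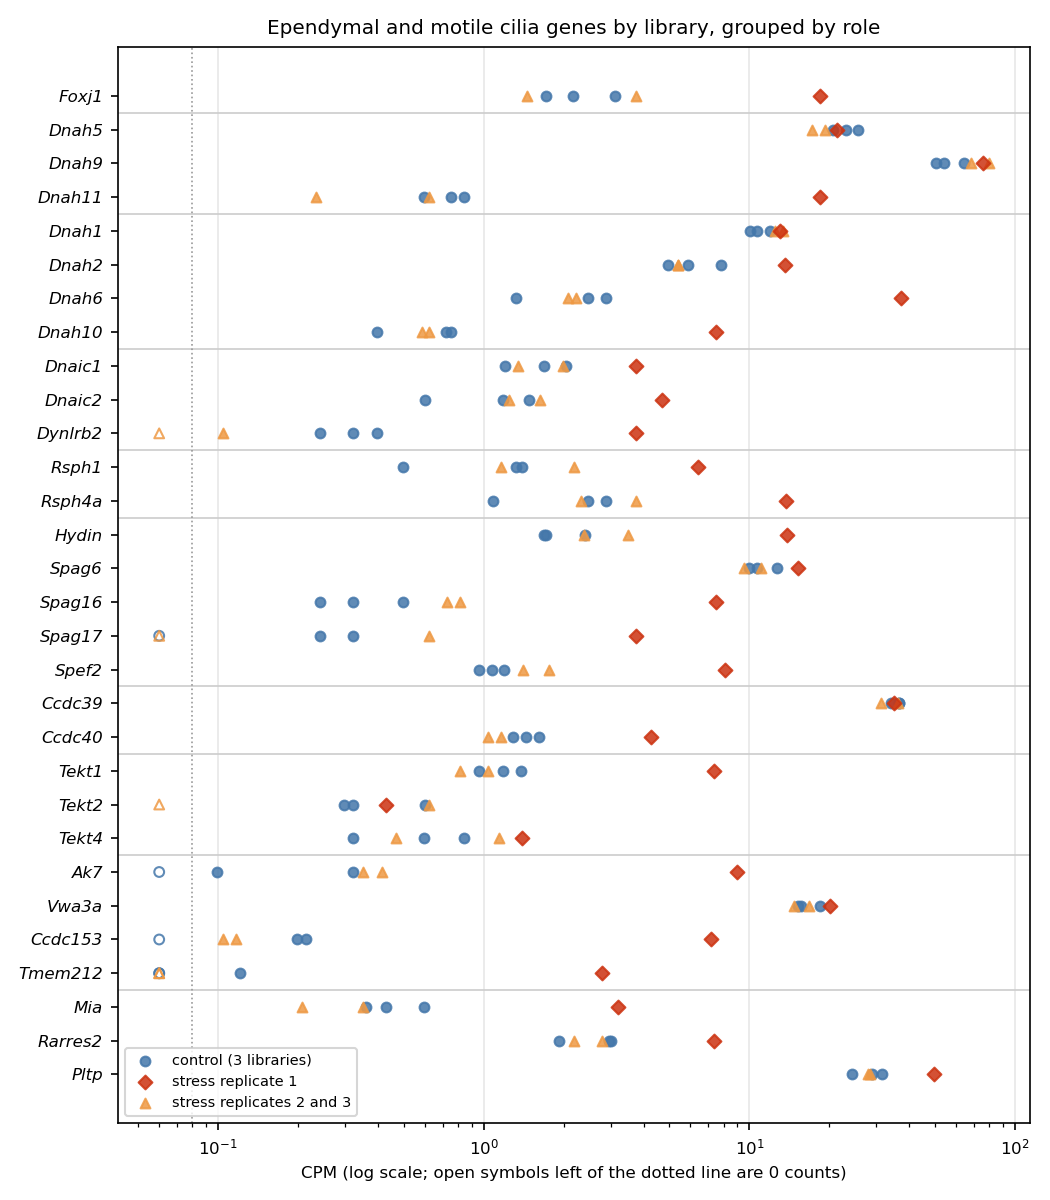
CPM (log axis) of the 30 members in each of the 6 libraries, grouped by role, with open symbols for 0 counts. Stress replicate 1 (diamonds) is the highest library for 25 members, while the controls (circles) and stress replicates 2 and 3 (triangles) lie together, and Dnah5, Dnah9, Dnah1, Ccdc39 and Tekt2 are highest in another library.

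Foxj1, the forkhead factor that switches on motile cilium genes (chr11:116330704-116335399, minus strand), was at 3.13, 2.18 and 1.71 CPM in the controls and at 18.5, 3.73 and 1.45 CPM in stress replicates 1, 2 and 3. Stress replicate 1 was 7.58 times the mean of the other 5 libraries, and the other stress libraries lay on either side of the controls. Rsph1, a protein of the radial spoke head (chr17:31255019-31277383, minus strand), was at 1.32, 0.495 and 1.39 CPM in the controls and at 6.42, 1.17 and 2.18 CPM under stress. Its spoke head partner Rsph4a was at 1.08, 2.47 and 2.89 CPM in the controls and at 13.7, 2.33 and 3.74 CPM under stress. For both spoke proteins only stress replicate 1 lay far from the rest, at 4.89 times the other libraries for Rsph1 and 5.46 times for Rsph4a.

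The dynein heavy chains, the motor subunits of the arms, split by their level elsewhere. The ratio of stress replicate 1 has that level as its denominator, so part of this split is built in. Of the outer arm chains, Dnah11 (chr12:117877982-118199043, minus strand) was at 0.843, 0.594 and 0.750 CPM in the controls and at 18.5, 0.233 and 0.623 CPM under stress, a ratio of 30.4 for stress replicate 1. Dnah5 (chr15:28203752-28472052, plus strand) was at 23.1, 25.5 and 20.7 CPM in the controls and at 21.3, 17.1 and 19.2 CPM under stress, a ratio of 1.01. Stress replicate 1 was thus in the range of the controls for Dnah5 and far above it for Dnah11, although both encode motors of the same arm. The third outer arm chain, Dnah9, was at 50.3, 64.4 and 54.1 CPM in the controls and at 75.7, 68.0 and 79.8 CPM under stress, so that its 3 stress libraries lay above its 3 controls with stress replicate 1 in the middle.

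Among the inner arm chains, Dnah6 (chr6:73017606-73221651, minus strand) was at 1.32, 2.47 and 2.89 CPM in the controls and at 37.3, 2.22 and 2.08 CPM under stress, a ratio of 16.99. Dnah1 (chr14:31260375-31323896, minus strand) was at 10.7, 11.97 and 10.1 CPM in the controls and at 13.0, 12.5 and 13.4 CPM under stress, a ratio of 1.11. Dnah6 therefore set stress replicate 1 apart, whereas for Dnah1 the 3 stress libraries were close together. Dnah10 and Dnah2, which form the same inner arm complex, had ratios of 12.2 and 2.31.

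The smaller dynein subunits had low levels outside stress replicate 1. Dynlrb2, a light chain of the roadblock family, was at 0.241, 0.396 and 0.322 CPM in the controls, at 3.74 CPM in stress replicate 1, at 0 in stress replicate 2 and at 0.104 CPM in stress replicate 3. These are 35 counts in stress replicate 1 and 10 over the other 5 libraries. Dnaic1, an intermediate chain of the outer arm, was at 1.20, 1.68 and 2.04 CPM in the controls and at 3.74, 1.98 and 1.35 CPM under stress, a ratio of 2.27. Its partner Dnaic2 had a ratio of 3.83.

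Of the 5 central pair proteins, 4 were at least 2-fold above the other libraries in stress replicate 1. Spag17, a projection protein of the central pair, was at 0.241, 0 and 0.322 CPM in the controls and at 3.74, 0 and 0.623 CPM under stress, or 35 counts in stress replicate 1 against 11 over the rest. Spag6 was at 9.99, 10.7 and 12.8 CPM in the controls and at 15.3, 11.1 and 9.56 CPM under stress, a ratio of 1.41. The files hold 1 symbol for Spag6, whereas GENCODE M21 lists it beside a near-identical copy, Spag6l, so its counts are uncertain and no position or length is given. Hydin, Spef2 and Spag16, which are also central pair proteins, had ratios of 5.94, 6.36 and 14.4.

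Ccdc39 and Ccdc40 act together as the ruler that sets the spacing of spokes and inner arms along a doublet, yet their levels did not move together here. Ccdc39 was at 36.6, 36.7 and 34.1 CPM in the controls and at 35.1, 36.4 and 31.4 CPM under stress, a ratio of 1.001. Ccdc40 was at 1.44, 1.29 and 1.61 CPM in the controls and at 4.28, 1.17 and 1.04 CPM under stress, a ratio of 3.27. Of the exonic bases of Ccdc39, 16.9% overlap another gene on the opposite strand, Ttc14, which was at 235 to 304 CPM, and the sources used here do not state whether reads were counted by strand.

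The tektins form filaments inside the wall of the doublets. Tekt1 was at 0.963, 1.39 and 1.18 CPM in the controls and at 7.38, 0.816 and 1.04 CPM under stress, a ratio of 6.85. Tekt2 was at 0.602, 0.297 and 0.322 CPM in the controls and at 0.428, 0 and 0.623 CPM under stress, with 3 to 5 counts in each control and 4 in stress replicate 1. At such counts a small difference in Tekt2 was not detectable. Tekt4 had a ratio of 2.06 and did not reach 2-fold over its highest other library.

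Ccdc153, a coiled-coil protein used as a marker of ependymal cells (chr9:44240676-44247306, plus strand), had the highest ratio of the members with more than 3 counts elsewhere. It was at 0, 0.198 and 0.214 CPM in the controls and at 7.16, 0.117 and 0.104 CPM under stress, a ratio of 56.6 resting on 67 counts against 6 over the other 5 libraries. Tmem212, a membrane protein and another ependymal marker, had 26 counts in stress replicate 1 and 1 count over the other 5 libraries. Its ratio was 128, with a 95% exact counting interval of 21.0 to 5237. The adenylate kinase Ak7, which supplies energy in the cilium, had a ratio of 37.9, with 84 counts in stress replicate 1. In this group Vwa3a differed, at 18.4, 15.2 and 15.6 CPM in the controls and at 20.1, 14.7 and 16.8 CPM under stress, a ratio of 1.24.

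The 3 secreted proteins of the set are not parts of the cilium. Mia, a small secreted protein also known from melanoma and cartilage, was at 0.361, 0.594 and 0.429 CPM in the controls and at 3.21, 0.350 and 0.208 CPM under stress, a ratio of 8.26. Of its exonic bases, 41.2% overlap another annotated gene on the same strand, so its counts are uncertain. Pltp, the phospholipid transfer protein, was at 24.4, 31.6 and 29.05 CPM in the controls and at 49.5, 28.3 and 27.9 CPM under stress, a ratio of 1.75. Rarres2, the precursor of the chemoattractant chemerin, had a ratio of 2.87. Exons of other genes on the opposite strand overlap 33.6% of the exonic bases of Rarres2 and 19.3% of those of Pltp, and also 20.8% for Tekt2 and 15.7% for Spag17. In all 3 the 5 other libraries lay together and stress replicate 1 above them.

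The ratio of stress replicate 1 followed the level elsewhere. Over 29 members, Spearman's rho between the mean of the other 5 libraries per kb and the ratio was -0.75, and between merged exon length and the ratio it was -0.21. These are descriptions across genes that share the same libraries, and the first pair of measures shares the mean of the other 5 libraries. All members with a ratio above 10 had a mean below 1 CPM per kb in the other libraries, but not all members at such levels had high ratios, as Tekt2 at 1.16 and Dnah1 at 1.11 show. Dnah9, Ccdc39, Vwa3a and Dnah5, which had at least 1 CPM per kb in control tissue, had ratios from 1.001 to 1.24. Pltp was the exception among the 5 well expressed members, at 1.75. As a difference, stress replicate 1 exceeded the mean of the other 5 libraries by 8.29 CPM per kb for Pltp, the largest of the 29 members. That difference was 0.776 for Dnah9, 0.546 for Vwa3a, 0.0091 for Dnah5 and 0.0059 for Ccdc39. For Hydin, whose ratio was 5.94, it was 0.641.

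**Figure D2:**
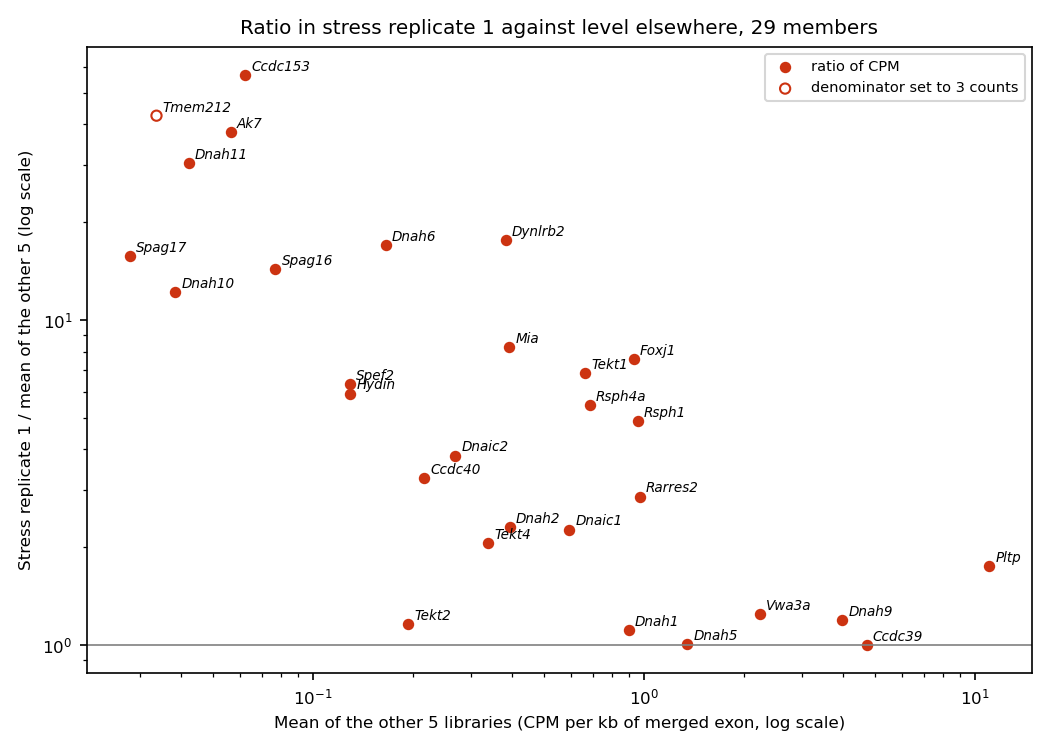
Ratio of stress replicate 1 to the mean of the other 5 libraries against that mean in CPM per kb of merged exon, both on log axes, for the 29 members with a unique length. Ratios are highest for members near 0 elsewhere, such as Ccdc153 at 56.6, and lie near 1 for Ccdc39 and Dnah5, and Tmem212 (open symbol) is drawn with its denominator set to 3 counts.

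Markers of other cell types also moved in stress replicate 1. All 19 choroid plexus epithelium genes were at least 2-fold above the other libraries there, and their sum was 7627 CPM against 161 to 219 CPM elsewhere. Ttr, the transthyretin that this epithelium secretes, was at 4171 CPM against 2.08 to 6.53 CPM, while Folr1 and Kcnj13 were at 38.6 and 46.0 CPM against at most 0.120 and 0.722 CPM. All 11 striatal neuron genes found in the files were also at least 2-fold above, at a sum of 632 CPM against 76.8 to 104 CPM, with Penk at 165 CPM against 6.86 to 10.8 CPM. The oligodendrocyte list summed to 1.73 times the mean of the other libraries, with none of its 10 genes at 2-fold, and the astrocyte list to 0.817 times, with 0 of 11. Neural stem and progenitor, blood vessel and microglia lists lay between 0.884 and 0.898 times, with no gene at 2-fold. The fibroblast list summed to 1.17 times, with 1 of 10 at 2-fold, Igf2 at 94.95 CPM against 16.9 to 30.3 CPM. Of the exonic bases of Igf2, 62.8% overlap another annotated gene on the same strand, so its counts are uncertain. The median ratio of the fibroblast genes was 0.724, and Dcn was at 9.73 CPM against 19.02 to 68.7 CPM. The part of these cell types in the levels of the ciliary genes was not tested.

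**Figure D3:**
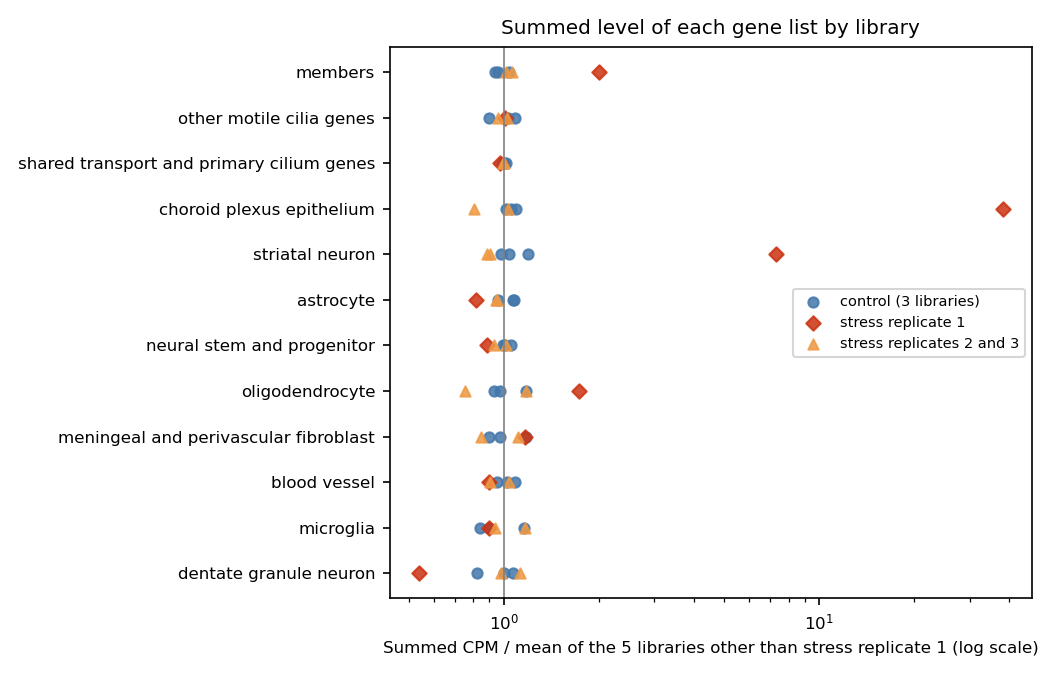
Summed CPM of each gene list in each library, divided by the mean of the 5 libraries other than stress replicate 1 (log axis). In stress replicate 1 (diamonds) the ciliary members were at 2.01 times, the choroid plexus genes at 38.2 times, the striatal genes at 7.27 times and the granule neuron genes at 0.538 times that mean.

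Genes of the wider ciliary pathway were described from a list of 75 other motile cilia genes, of which 66 were in the files. In stress replicate 1, 20 of the 66, or 30.3%, were at least 2-fold above each other library, against 1.21% of tested genes and 3.00% of those with more than 3 counts in some library. Their highest level was there for 46, or 69.7%, against 21.7% of tested genes and 22.7% of those with more than 3 counts in some library. By role, the genes at least 2-fold above were 11 of 20 of the doublet interior and other cilium-associated proteins. They were also 4 of 12 for the assembly and docking of dynein arms, 2 of 8 other dynein chains and 2 of 4 of the central apparatus. The rest was 1 of 11 regulators of ciliogenesis, with 0 of 11 of the nexin link and spokes at 2-fold. Wdr63, an intermediate chain of an inner arm, was at 0 CPM in the 3 controls and in stress replicate 2, at 0.104 CPM in stress replicate 3 and at 5.03 CPM in stress replicate 1. Wdr96, also called Cfap43, was at 13.2 CPM there against 0.322 to 1.25 CPM. A single gene of the 66 was at least 2-fold below the other libraries there, the tektin Tekt5, at 3.31 CPM against 7.83 to 11.5 CPM. The regulator Rfx3 was also lowest in stress replicate 1, at 236 CPM against 311 to 461 CPM, and it alone made up a large part of the list's sum, which was 816 CPM there against 729 to 875 CPM elsewhere. These last 4 genes were chosen after their values were seen.

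Stress was then compared with control. The fits ran over all genes with enough counts, 14058 with all 6 libraries and 14188 without stress replicate 1, and 19 of the 30 members entered each. With all 6 libraries, none of the 19 members passed the adjusted p threshold of 0.05 (edgeR's quasi-likelihood test with Benjamini-Hochberg adjustment over all genes), where 0.0285% of all genes passed. In the fit that leaves out stress replicate 1, again none of the 19 passed, where 0.289% of all genes passed. DESeq2 and limma-voom also called no member in either comparison. At an unadjusted p under 0.05 edgeR gave 6 of 19 members with all libraries, all higher under stress, or 31.6% against 8.71% of all genes. This count depended on the tool, the filter and the libraries. It was 1 of 19 with limma-voom, or 5.26% against 8.48%, and 5 of 19 with DESeq2, beside 6.14% of all genes. By edgeR, leaving out any 1 control library gave 2 of 20, beside 5.83% to 6.54% of all genes. The count was 10 of 20 without stress replicate 2, beside 9.69% of all genes, and 9 of 19 without stress replicate 3, beside 7.47%. A block for the replicate number gave 5 of 19, beside 9.24%, and fitting with no filter gave 15 of 30, beside 7.60%. Leaving out stress replicate 1, edgeR gave 2 of 19, or 10.5% against 11.5%, with 1 in each direction.

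The median log2 fold change of the 19 members was 0.60 with all 6 libraries, 17 of them above 0, beside 0.0038 over all tested genes. Without stress replicate 1 it was -0.011, with 9 above 0 and 10 below, beside -0.0053 over all genes. The median with all libraries rests on that library: it was 0.88 without stress replicate 2 and 0.95 without stress replicate 3. Of the 11 members too low to be tested, 9 were among the 19 that were at least 2-fold above the rest in stress replicate 1, so the medians leave out members with large ratios.

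Here and below, log2 fold changes and adjusted p-values are from edgeR, while each SE is from a separate limma-voom fit whose own estimates can differ. Dnah9 had the smallest p of the members in both comparisons. Its stress libraries did not overlap its controls, and it differed by 0.42 on the log2 scale (SE 0.11, adjusted p 0.306 by edgeR) with all libraries. With that library left out the change was 0.40 on the log2 scale (SE 0.11, adjusted p 0.157 by edgeR), so the value for this gene hardly changed. Hydin, Spef2 and Rsph1 followed with all libraries, with log2 fold changes of 1.80 (SE 0.70), 1.82 (SE 0.70) and 1.64 (SE 0.70) and edgeR adjusted p-values of 0.521, 0.532 and 0.540. Hydin was at 2.41, 1.68 and 1.71 CPM in the controls and at 13.9, 3.50 and 2.39 CPM under stress, and Spef2 was at 0.963, 1.19 and 1.07 CPM and at 8.13, 1.40 and 1.77 CPM. The stress libraries of Spef2 lay above its controls, whereas those of Hydin and Rsph1 overlapped them. These 3 values rest on stress replicate 1: leaving it out gave 0.61 for Hydin (SE 0.31, adjusted p 0.502 by edgeR), 0.56 for Spef2 (SE 0.35, adjusted p 0.613) and 0.69 for Rsph1 (SE 0.49, adjusted p 0.638). Dnah5 and Dnah1 were, with Dnah9 and Hydin, the members of smallest p in that fit. Dnah5 had a log2 fold change of -0.34 in it (SE 0.13, adjusted p 0.303 by edgeR) and -0.25 with all libraries (SE 0.13, adjusted p 0.633). Dnah1 had 0.25 in it (SE 0.14, adjusted p 0.552 by edgeR) and 0.26 with all libraries (SE 0.12, adjusted p 0.599).

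**Figure D4:**
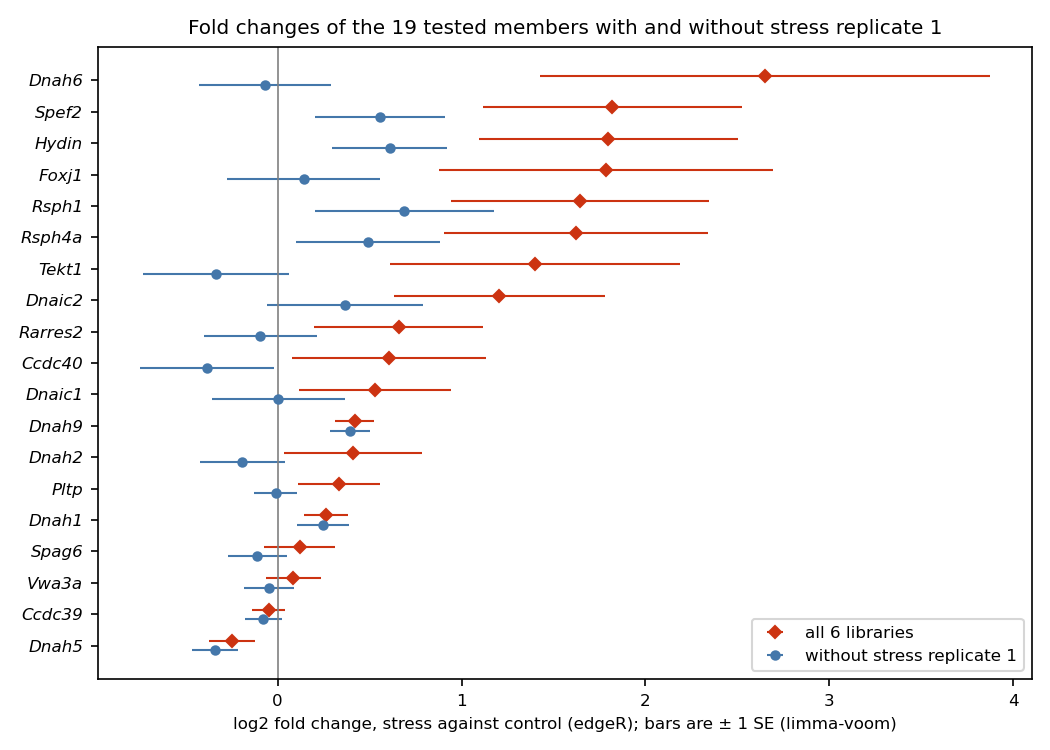
Log2 fold change (edgeR) of stress against control for the 19 tested members, with all 6 libraries (diamonds) and without stress replicate 1 (circles). Bars show 1 SE on each side, taken from a separate limma-voom fit. The members spread up to high values with all libraries, while without stress replicate 1 they centre near 0, and Dnah9, Dnah1, Dnah5 and Ccdc39 lie close in both comparisons.

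Separation of the groups was counted over all 30 members. All 3 stress libraries lay above all 3 controls for 5 members, Dnah9, Dnah1, Spag16, Spef2 and Ak7, or 16.7% against 5.56% of all genes with more than 3 counts in some library. No member had all 3 stress libraries below the controls, against 8.64% of all genes. With stress replicates 2 and 3 alone, the same 5 members lay above, or 16.7% against 13.1% of genes. Dnah5, Dynlrb2, Ccdc40 and Mia lay below, or 13.3% against 15.0%. Both of these shares lie near those of all genes. Some of these separations are within counting limits: Ak7 had 3 counts in a control and in stress replicate 2, Mia likewise, and Dynlrb2 had at most 4 counts in any of these 5 libraries, so library totals or a few counts set them apart.

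Other motile cilia genes gave the same count of calls. Of 46 tested with all libraries, none passed (edgeR, adjusted p threshold of 0.05), 3 had an unadjusted p under 0.05, or 6.52% against 8.71% of all genes, and the median log2 fold change of the 46 was 0.21. With stress replicate 1 left out, 45 were tested, none passed, 6 had an unadjusted p under 0.05 with 3 in each direction, or 13.3% against 11.5% of all genes, and the median was 0.025. DESeq2 and limma-voom also called none in either comparison. Ccdc37, a cilium-associated protein also called Cfap100, was at 4.33, 5.14 and 5.04 CPM in the controls and at 9.20, 7.70 and 8.41 CPM under stress. Its groups did not overlap, and its log2 fold change was 0.81 (SE 0.16, adjusted p 0.215 by edgeR). The next 3 by p were Zmynd10, a factor for the assembly of dynein arms, at 1.21 (SE 0.39, adjusted p 0.453 by edgeR), Wdr52, also called Cfap44, at 0.81 (SE 0.36, adjusted p 0.573), and Lrrc6, another assembly factor, at 0.46 (SE 0.21, adjusted p 0.591). Leaving out stress replicate 1 gave 0.74 for Ccdc37 (SE 0.18, adjusted p 0.122 by edgeR) and 0.37 for Lrrc6 (SE 0.23, adjusted p 0.596). It moved Zmynd10 to 0.72 (SE 0.32, adjusted p 0.429 by edgeR) and Wdr52 to 0.27 (SE 0.20, adjusted p 0.656).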

How the data were processed

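The deposited tables, 1 per library, hold whole-number read counts by gene symbol. Per the labels' protocols, library preparation was stranded, from total RNA depleted of ribosomal RNA, and libraries were sequenced single-end in 1 pool over several lanes. Tools in the submitters' processing notes are TopHat2 2.0.9, HTSeq 0.6.1, edgeR 3.12.0, Trimmomatic 0.33 and FastQC 0.11.3, with GRCm38 and mm10 as builds, and no role is stated. For counting, the annotation and strand setting were not given in the sources used here. Reads assigned to no gene (59.5% to 63.1% of those listed) and ambiguous reads (0.211% to 0.253%) were left out of library totals.

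CPM uses the plain gene total. The 2-group fits used edgeR 4.0.16 in R 4.3.3 (filterByExpr, TMM, quasi-likelihood F-test, two-sided, Benjamini-Hochberg over all tested genes, threshold 0.05), with SE from limma 3.58.1 voom, and were refitted without stress replicate 1. The fit was tested on simulated counts. Alternatives were upper quartile and relative log expression scaling, 2 other filters, DESeq2 1.42.0, limma-voom, an adjusted p threshold of 0.10, a block for the replicate number, and each library left out. Leaving out libraries for the 2-fold count and for control levels was added after seeing the data. Positions and merged exon lengths are from GENCODE M21, promoters from RefSeq on GRCm38.p6. Motifs were counted in the full 250 bases, and only the printed windows were trimmed, where they reached past the GENCODE gene start.

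The members, lists and tests were chosen with earlier results of these data known. Every library is printed for Foxj1, Rsph1 and the members of highest and lowest ratio in each role, and log2 fold changes for the 4 smallest p per comparison. Further genes were named for their role. Ratios for Tmem212 in rank statistics use a floor of 3 counts.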

Additional observations from a re-analysis of the deposited data

How the results depend on the processing

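No member or other motile cilia gene was called in the comparison of all stress with all control libraries under any alternative run. Without stress replicate 1, the count of members called went from 0 to 1 with no filter and to 1 with the replicate block. In both cases this was Dnah9, at an adjusted p of 0.0313 and 0.0378 (edgeR), against 0.157 in the fit as reported and up to 0.999 over the alternatives. Other motile cilia genes called went from 0 to 1 with no filter (Ccdc37, adjusted p 0.0493 by edgeR, up to 0.867 over the alternatives). The cause was not tested. The median member log2 fold change with all libraries was 1.41 with no filter, which takes in 30 members, 0.42 with limma-voom and 0.46 with the replicate block, and ranged from -0.011 to 0.95 over the libraries left out. Same-numbered control and stress libraries had correlations of 0.137, -0.0076 and 0.042 in their deviations from their group means. Pairs with different numbers had -0.153 to 0.122. With 3 libraries per group, these values cannot show whether same-numbered libraries were paired or shared a batch. The replicate block moved the calls over all genes from 4 to 0 with all libraries and from 41 to 523 without stress replicate 1. Over all genes, DESeq2 called 107 and 167, limma-voom 1 and 45. Without stress replicate 1, no filter called 358, and leaving out a further library called 0 to 88. The 2-fold count of members in stress replicate 1 was 22 at 1.5-fold, 13 at 4-fold and 19 or 20 without 1 of the other libraries. Depth limits members such as Tekt2, Spag17 and Tmem212, whose counts outside stress replicate 1 were a few per library at most.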

Other observations

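Transport genes that motile and primary cilia share, and genes of the primary cilium such as Sstr3 and Mchr1, were read beside the motile set. All 38 genes of intraflagellar transport, the basal body and the primary cilium were in the files, and none was at least 2-fold above the other libraries in stress replicate 1. Their summed level was 2316, 2277 and 2245 CPM in the controls, 2212 CPM in stress replicate 1, and 2284 and 2259 CPM in stress replicates 2 and 3. The ratio of stress replicate 1 to the mean of the others was 0.972, beside 2.01 for the 30 members. Abundant genes weigh most in such sums, as does Ahi1, at 376 CPM in stress replicate 1 against 406 to 452 CPM elsewhere. The median ratio over single genes was 1.01 for the 38 genes, beside 5.18 for the members. In this list 14 of 38 genes were highest in stress replicate 1. The shares highest there were 21.7% of all tested genes and 22.7% of those with more than 3 counts in some library. The difference between the lists was not tested.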
